A study of Mus musculus with 12 samples.

Results

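Chromosome 14 was taken from the whole-exome sequencing (WES) of the primary murine pancreatic ductal adenocarcinoma (PDAC) lines 15376T and 14837T, and all of its rows in the deposited tables of both lines were used. These rows were 10 of the 191 copy-number segments of WES-15376T and 12 of the 235 segments of WES-14837T, with 782 of 7960 gene rows in the first line and 424 of 4755 in the second. The members were chosen by measured values, since the borders and levels of the segments define them, so the levels are given as a description and no test was made. With 1 library per line there was no replicate, and the standard deviation (SD) of log2 among the segments called at 2 copies on the autosomes, 0.09 over 103 segments of WES-15376T and 0.10 over 96 segments of WES-14837T, stood in for the error of a level. The call thresholds bound this SD, so it is a description and not a test.

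Both lines came from C57BL/6 mice that carried ROSA_rtTA, p48-Cre and p53 L/+ among their alleles. The p48 (Ptf1a) promoter drives Cre in cells of the developing pancreas, and there Cre deletes the floxed p53 allele and switches on rtTA, an activator that works in the presence of doxycycline. The labels give WT as the genotype of both libraries. The cells grew in DMEM with fetal bovine serum, and the paper's methods add doxycycline. The sources used here give neither the age of the mice nor whether a line is 1 clone, and the tail DNA of a wild-type mouse and the RNA samples were not analysed here.

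Copy number is the number of copies of a stretch of DNA in a cell. Exome capture reads it from depth: a stretch with more copies than the reference yields more reads over its targets, and neighbouring target bins with like values are joined into a segment. A border between segments marks a place where the level changes, and a border inside a gene separates its 5′ part from its 3′ part in copy number. Chromosome 14 of the mouse carries Rb1, a brake on the cell cycle, Bap1 and Pbrm1, which encode chromatin regulators and tumor suppressors, the Wnt ligand gene Wnt5a, the T cell receptor alpha and delta genes and the miR-17-92 cluster of microRNAs.

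In WES-15376T, 4 gained segments lay among lost ones. Of its 7 borders on chromosome 14 with a log2 step of at least 1, 6 fell inside a protein-coding gene. These genes were Ube2e2, Dennd6a, Dnah12, Cacna1d, Sfmbt1 and Ankrd28. Over all 164 autosomal borders of the line, 59.8% fell inside a protein-coding gene. The promoters of the genes listed on both sides of a border of WES-15376T are shown first, together with that of Arf4, the gene lying between Dennd6a and Dnah12 in the highest segment, because they place the 5′ end of each gene on 1 side of its border. Sequences are from RefSeq on GRCm38.p6, from 250 bases before to 50 bases after the transcript start nearest to the outermost 5′ bin of the gene, written 5′ to 3′ on the strand of the gene with each CG dinucleotide, which reads the same on both strands and is the target of DNA methylation, in capitals.
Dennd6a promoter, chr14:26579300-26579599, plus strand: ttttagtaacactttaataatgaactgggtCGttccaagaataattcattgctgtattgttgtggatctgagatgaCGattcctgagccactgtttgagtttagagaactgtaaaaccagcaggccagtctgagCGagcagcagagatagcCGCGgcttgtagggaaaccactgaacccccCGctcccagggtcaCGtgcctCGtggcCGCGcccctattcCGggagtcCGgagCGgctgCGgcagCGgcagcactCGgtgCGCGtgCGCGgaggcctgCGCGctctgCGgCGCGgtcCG
Arf4 promoter, chr14:26637884-26638183, plus strand: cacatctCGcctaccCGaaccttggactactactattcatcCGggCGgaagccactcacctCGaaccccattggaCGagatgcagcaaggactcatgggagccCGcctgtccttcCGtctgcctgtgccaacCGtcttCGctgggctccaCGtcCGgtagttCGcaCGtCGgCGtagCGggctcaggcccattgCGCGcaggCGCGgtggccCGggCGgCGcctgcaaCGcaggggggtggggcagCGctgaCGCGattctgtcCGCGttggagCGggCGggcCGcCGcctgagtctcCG
Dnah12 promoter, chr14:26691304-26691603, plus strand: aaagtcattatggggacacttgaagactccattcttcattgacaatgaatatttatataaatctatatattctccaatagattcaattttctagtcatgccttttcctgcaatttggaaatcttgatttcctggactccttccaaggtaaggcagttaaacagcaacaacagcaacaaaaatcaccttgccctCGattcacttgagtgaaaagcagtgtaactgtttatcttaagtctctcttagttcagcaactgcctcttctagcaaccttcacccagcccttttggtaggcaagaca
Cacna1d promoter, chr14:30491107-30491406, minus strand: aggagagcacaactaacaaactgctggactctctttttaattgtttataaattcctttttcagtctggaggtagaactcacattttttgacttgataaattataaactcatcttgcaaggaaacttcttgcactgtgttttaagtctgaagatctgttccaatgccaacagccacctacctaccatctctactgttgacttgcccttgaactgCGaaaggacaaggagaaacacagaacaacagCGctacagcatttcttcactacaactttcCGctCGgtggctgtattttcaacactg
Ankrd28 promoter, chr14:31830366-31830665, minus strand: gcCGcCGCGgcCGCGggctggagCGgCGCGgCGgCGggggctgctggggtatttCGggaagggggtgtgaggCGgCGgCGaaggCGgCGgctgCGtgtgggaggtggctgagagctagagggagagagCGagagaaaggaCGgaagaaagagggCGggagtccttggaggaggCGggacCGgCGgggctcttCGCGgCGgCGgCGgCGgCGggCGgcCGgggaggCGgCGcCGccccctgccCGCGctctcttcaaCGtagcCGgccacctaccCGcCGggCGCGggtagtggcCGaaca
The start of Dennd6a lay in the segment at log2 0.64, those of Arf4 and Dnah12 in the segment at 1.99, that of Cacna1d in the segment at 0.66 and that of Ankrd28 in the segment at 0.72, so all 5 windows were in gained DNA of WES-15376T. In WES-14837T the same windows lay in lost segments at log2 -0.33. The Ankrd28 window held 44 CG dinucleotides at 76.3% GC, as many or more being found in 2.32% of the 31396 promoters of this length in RefSeq. The Arf4 window held 35 at 68.0% GC, reached by 7.18% of promoters, and the Dennd6a window 26 at 58.3%, reached by 17.4%. The Cacna1d and Dnah12 windows held 4 and 1, reached by 69.1% and 94.8% of promoters, against a median of 7 over all promoters and 5 over the 1358 on chromosome 14. GC content bears on how well a target is captured, and its part in the depths was not tested.

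Of the 43 microRNA genes on chromosome 14, 5 lay in the gained segments of WES-15376T, of which 1 was in the highest segment. Beside this, 72 of the 850 protein-coding genes and 6.93% of the length of the chromosome were gained, so nothing is read from the count. The mature sequences from the listed genes in the smaller gained segments are shown with the seed, bases 2 to 8, which pairs with targets, in capitals.
mmu-miR-7672-5p, chr14:26669587-26669608, minus strand: cGGUGGACuugacagcgggcga
mmu-miR-7672-3p, chr14:26669547-26669567, minus strand: uCGGCUGCcagguucaugugg
mmu-miR-3076-3p, chr14:30572185-30572207, plus strand: cGCACUCUggucuucccuugcag
No other mature mouse microRNA in the RefSeq table shared any of these seeds. Mir7672, at chr14:26669547-26669608, was listed with 1 bin, chr14:26668240-26669559, which also ends the stretch listed for Pde12 in the segment at 1.99. By its coordinates this bin reaches only the lowest coordinates of the microRNA gene, its 3′ end on the minus strand, and none of miR-7672-5p. Its depth of 92.2, the lowest listed in that segment, is thus mainly a reading of the Pde12 stretch. Mir3076 lay within Tkt and its 1 bin had a depth of 57.1, against a mean of 46.0 over the 2-copy segments of the line.

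The 2 lines had the same 8096 bins on chromosome 14 but differed in how the levels were ordered along it. In WES-15376T the 10 segments were called at 2, 1, 3, 8, 1, 3, 1, 4, 1 and 1 copies from the centromeric end, the log2 values being -0.12, -0.64, 0.64, 1.99, -0.64, 0.66, -0.52, 0.72, -0.59 and -0.55. In WES-14837T all 12 segments were called at 1 copy, the log2 values being -0.30, -0.58, -0.33, -0.60, -0.33, -0.63, -0.33, -0.50, -0.35, -0.65, -0.31 and -0.41. The lost segments of WES-15376T spanned -0.64 to -0.52 and the gained ones other than the highest 0.64 to 0.72, so the gained ones lay within 1 SD of each other and the lost ones within 2 SD, while the highest stood 1.27 above the next.

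The calls followed log2 thresholds, the nearest being -0.25 for a loss and 0.2 for a gain. A call of 1 copy thus stood for any log2 above -1.1 and up to -0.25, and is not a measured count of copies. The lost segment nearest to the threshold of -0.25 was at -0.30, the first of WES-14837T. The segment nearest to that threshold on the other side was the first of WES-15376T at -0.12. In WES-15376T, 4 of 10 segments were called gained, beside 20.8% of the 183 autosomal segments of the line, and 5 of 10 lost, beside 23% of them. In WES-14837T, 0 of 12 were gained, beside 26.3% of its 224 autosomal segments, and 12 of 12 lost, beside 30.8%. These counts were fixed by the values that define the segments and nothing is read from them.

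**Figure D1:**
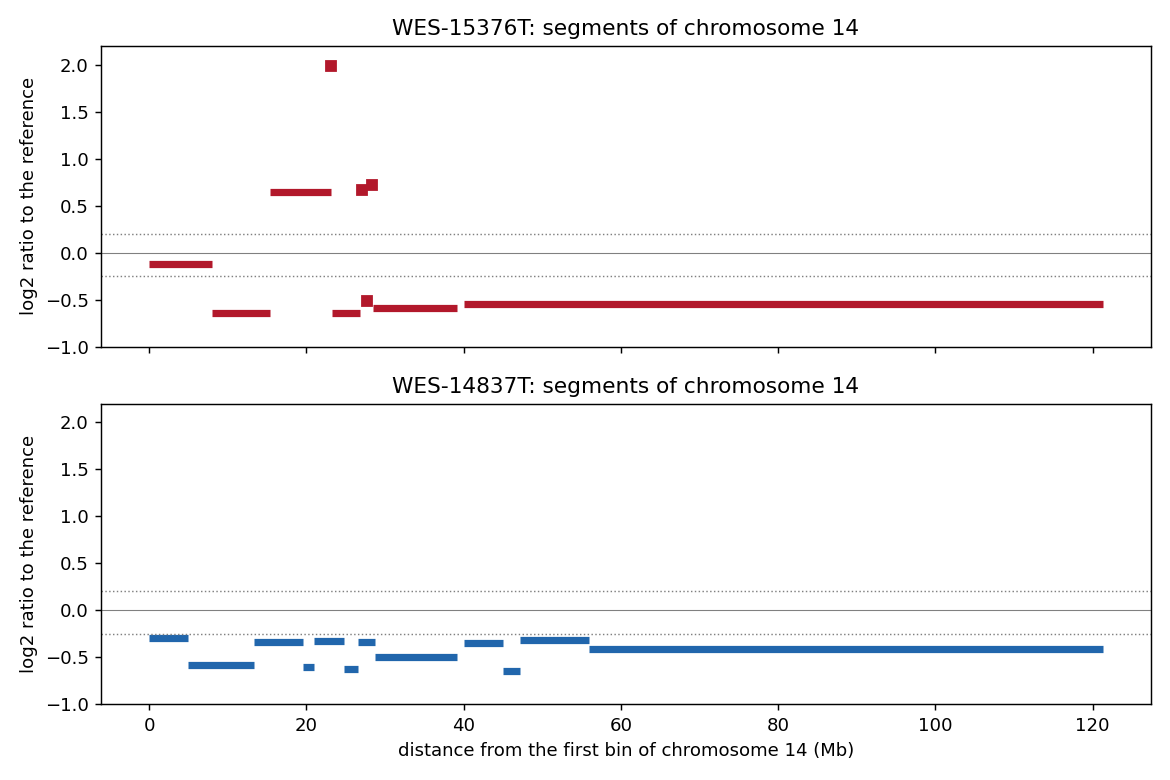
Segments of chromosome 14 in WES-15376T (upper) and WES-14837T (lower), drawn as bars at their log2 ratio to the copy-number reference (vertical axis) against the distance from the first bin in Mb (horizontal axis), with a square on each segment under 1 Mb long and dotted lines at the thresholds of -0.25 and 0.2. WES-15376T has 4 gained segments at 0.64 to 1.99 among lost ones, and all 12 segments of WES-14837T lie between -0.65 and -0.30.

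By length, WES-15376T was gained over 8.33 Mb, 6.93% of chromosome 14, and lost over 104 Mb, 86.4%, while WES-14837T was lost over 120 Mb, 100%. The gains held 72 of the 850 RefSeq protein-coding genes of the chromosome, the losses 673 and the 2-copy segment 82, with 23 outside every segment. All gains lay within 13.0 Mb, from chr14:18888973 to chr14:31928939. The mean log2 weighted by length was -0.45 for WES-15376T, against -0.42 for WES-14837T.

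The B-allele fraction, the share of reads with the alternative base at variant sites, was 0.024 to 0.125 over the segments of WES-15376T with a value and 0.028 to 0.094 over those of WES-14837T. The autosomal medians were 0.077 and 0.061. The number of variants behind each value is not in the tables, and 3 and 2 segments were blank. Of the gained segments only those at log2 0.64 and 0.66 had a value, 0.049 and 0.065.

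The gains of WES-15376T formed 4 blocks. The longest, chr14:18888973-26616985, was 7.73 Mb at log2 0.64 over 689 bins, called at 3 copies. It held 65 protein-coding genes, among them Plau, the urokinase plasminogen activator, Vcl, which encodes the adhesion protein vinculin, Adk, adenosine kinase, the acetyltransferase gene Kat6b and the transcriptional coregulator gene Zmiz1. The mean depth of this segment was 72.4, or 0.65 on the log2 scale above the 46.0 of the 2-copy segments. Depth and log2 come from the same reads, and the 2-copy segments were called from log2, so the depth is no independent reading of the level.

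The highest block, chr14:26619269-26743270, was 0.124 Mb at log2 1.99 over 33 bins, called at 8 copies. It directly followed the longest block. Its mean depth was 247, or 2.42 above the 2-copy depth on the log2 scale, which was more than the 1.99 against the reference. It held Arf4, which encodes a small GTPase of the secretory pathway, and Pde12, a mitochondrial phosphodiesterase, between the 3′ part of Dennd6a, a guanine nucleotide exchange factor of membrane traffic, and the 5′ part of Dnah12, a dynein heavy chain. The depth was 263 over the 7 bins of Arf4, 198 over the 3 bins of Pde12, 231 over the 6 bins of Dennd6a and 264 over the 16 bins of Dnah12 in this segment.

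The block that holds Prkcd, chr14:30479599-30765496, was 0.286 Mb at log2 0.66 over 58 bins with a depth of 72.1. It held Dcp1a, an mRNA decapping factor, Tkt, the transketolase of the pentose phosphate pathway, and Prkcd, protein kinase C delta, with depths of 89.8, 60.8 and 72.2. The last block, chr14:31734939-31928939, was 0.194 Mb at log2 0.72 over only 12 bins with a depth of 77.2, and was called at 4 copies, past a threshold of 0.7. Its only listed gene was Ankrd28, a regulatory subunit of protein phosphatase 6, with a depth of 96.9 over the 10 bins there.

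Between the blocks the levels fell back to a loss each time. The stretch chr14:26752271-30353005 after the highest block was at log2 -0.64, with a depth of 31.1 over 315 bins. The stretch chr14:30765997-31732119, which separated the Prkcd block from the last, was at -0.52, with a depth of 35.4 over 477 bins. It held 27 protein-coding genes, with Pbrm1 at a depth of 39.1 over 34 bins and Bap1 at 34.2 over 15 bins, so the gains to its sides were apart in this line.

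The levels of genes bore on the blocks through depth alone, because the log2 listed for a gene was that of its segment. In WES-15376T, 77 of the 82 listed gained rows (93.9%) had a depth above the 2-copy depth, beside 89.3% of the 1337 rows listed as gained on its autosomes. Of the 700 listed lost rows, 147 (21.0%) did, beside 19.6% of 6116. In the longest block 65 of 70 rows did, with a median depth of 84.2 and a range from 27.1 at 6230400D17Rik, with 1 bin, to 145 at Cphx2. In the stretch of Pbrm1 and Bap1, 5 of 31 did, with a median of 34.2. Depth spread widely between genes of the same segment, and it is not corrected for how well each target is captured, whose part was not tested.

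Among the gained rows, 14 genes formed 5 sets that were listed with the same bins and so shared 1 value per set. These were Gm2260 with Gm2274, Plac9a and Plac9b with Gm9780, Tmem254a with Tmem254b and Tmem254c, Cphx1 with Cphx2 and Cphx3, and Duxbl1 with Duxbl2 and Duxbl3. Their depths ran from 64.5 for the Plac9a set to 145 for the Cphx1 set. Such near-identical copies may share reads, and their depths are uncertain.

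**Figure D2:**
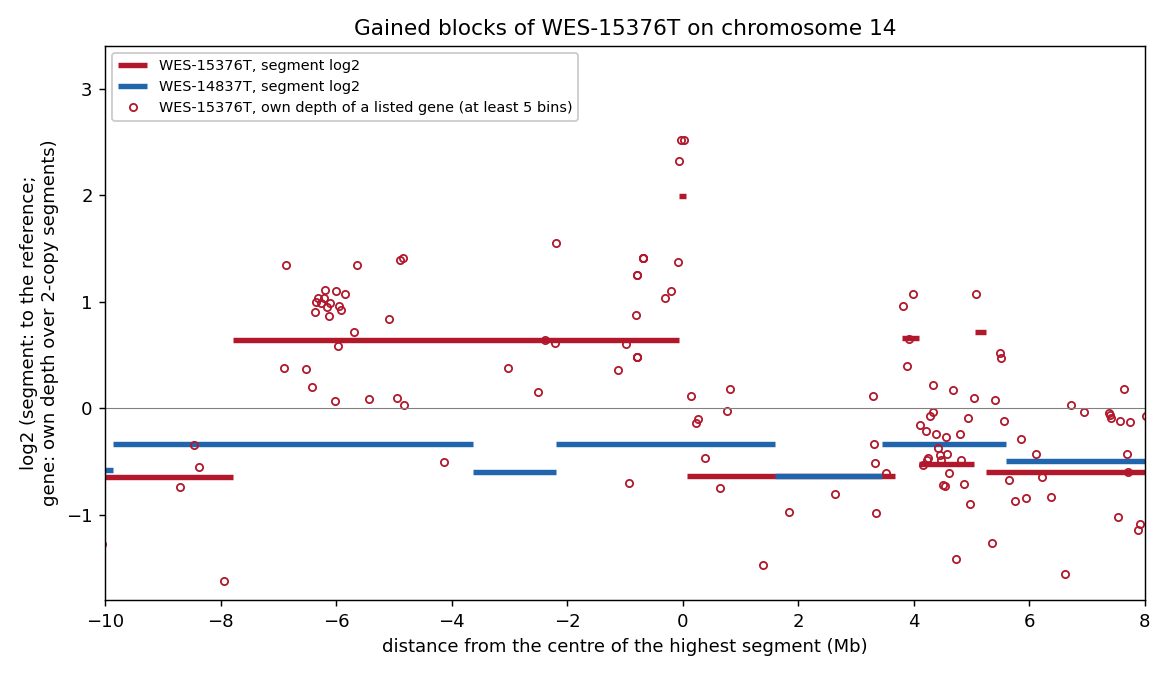
Gained blocks of WES-15376T, with segment log2 of both lines as bars and the own depth of each listed gene of WES-15376T with at least 5 bins as circles, in log2 over the mean depth of the 2-copy segments (vertical axis), against the distance from the centre of the highest segment in Mb (horizontal axis). The genes of the highest segment sit at 2.32 to 2.52, above the other genes shown, while genes between the blocks mostly lie below 0.

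WES-15376T had 9 borders on chromosome 14, and 7 of them had a log2 step of at least 1. On the autosomes of this line 10 of 164 borders, 6.1%, had such a step, and the other 3 were on chromosomes 2 and 12. The pair on chromosome 2 lay at the same positions in WES-14837T. None of the 11 borders of WES-14837T on chromosome 14 had such a step, with 4 among its 205 autosomal borders. The median absolute step of WES-15376T was 1.29 on chromosome 14 and 0.24 on the other autosomes, while that of WES-14837T was 0.27 and 0.23. The number of borders itself did not stand apart, since the other autosomes had 1 to 23 in WES-15376T with a median of 7.5, and 1 to 20 in WES-14837T with a median of 9.5.

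**Figure D3:**
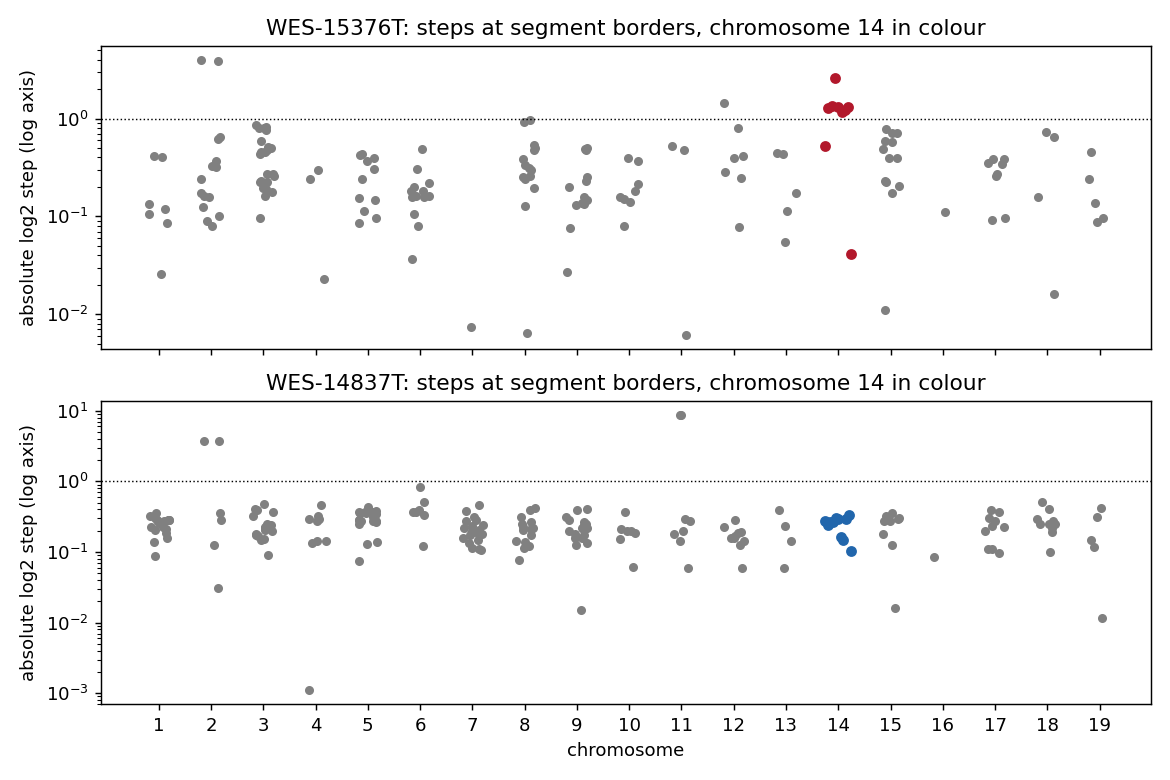
Absolute log2 step at each segment border (vertical log axis) by chromosome (horizontal axis, with points spread sideways for legibility) in WES-15376T (upper) and WES-14837T (lower), chromosome 14 in colour and a dotted line at 1. In WES-15376T, 7 of the 10 points past the line are on chromosome 14, and in WES-14837T none of the 4 is.

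From the centromeric end, the first border of WES-15376T, from log2 -0.12 to -0.64, lay inside Ptprg, which encodes a receptor tyrosine phosphatase, after the fragile-site gene Fhit. At the second, inside Ube2e2, a ubiquitin-conjugating enzyme, the level rose by 1.29 to the longest block, with Ube2e1 the last whole gene before it and Gm41099 the first after it. At the third, inside Dennd6a, it rose by a further 1.35 to the highest block, between Slmap and Arf4. At the fourth, inside Dnah12, it fell by 2.63, between Pde12 and Asb14.

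The fifth border of WES-15376T, inside Cacna1d, had a step of 1.30 up to the Prkcd block, with Chdh the last whole gene before it and Tkt the first after it, and was placed only to within the 126593 bases that no bin covered. At the sixth, inside Sfmbt1, a Polycomb-associated gene, the level fell by 1.18, with Stimate the first whole gene after it. At the seventh, inside Ankrd28, it rose by 1.23 after Btd, which encodes biotinidase, and at the eighth, between Ankrd28 and Galnt15, it fell by 1.31. The ninth, from -0.59 to -0.55, had a step of 0.04, under the SD, across 968265 bases without bins between Gm17124 and Gm8165. The steps into and out of the blocks at 0.64 to 0.72 thus ran from 1.18 to 1.31 in size, leaving out those of the highest block, and the depths of the neighbouring segments gave steps of 1.03 to 1.42 at these 5 borders.

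Borders fell inside a protein-coding gene at 7 of 9 places in WES-15376T, beside 59.8% of its autosomal borders, and at 9 of 11 in WES-14837T, beside 68.3%. Where within the gap between bins a border lay is not known. The RefSeq table used here gives gene spans without exons, so borders were not placed in exons or introns.

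For 4 genes the tables of WES-15376T listed the parts on each side of the border with a depth each. Dennd6a, on the plus strand, had a depth of 119 over the 15 bins before its border and 231 over the 6 bins after it, a step of 0.95 on the log2 scale where the segments stepped by 1.35. Dnah12, on the plus strand, had 264 over 16 bins before and 49.8 over 15 bins after, a step of -2.40 against -2.63. Cacna1d, a subunit gene of the L-type calcium channel on the minus strand, had 30.3 over 50 bins before and 96.8 over 4 bins after, a step of 1.68 against 1.30. Ankrd28, on the minus strand, had 49.4 over 17 bins before and 96.9 over 10 bins after, a step of 0.97 against 1.23.

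All 4 within-gene depth steps had the sign of the step between segments, and by strand the 5′ parts of Dnah12, Cacna1d and Ankrd28 were on the higher side while that of Dennd6a was on the lower. The parts of a gene are different targets, and how much of a step came from their capture was not tested. Since the segments were called from these bins, the steps are no independent reading of the borders.

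**Figure D4:**
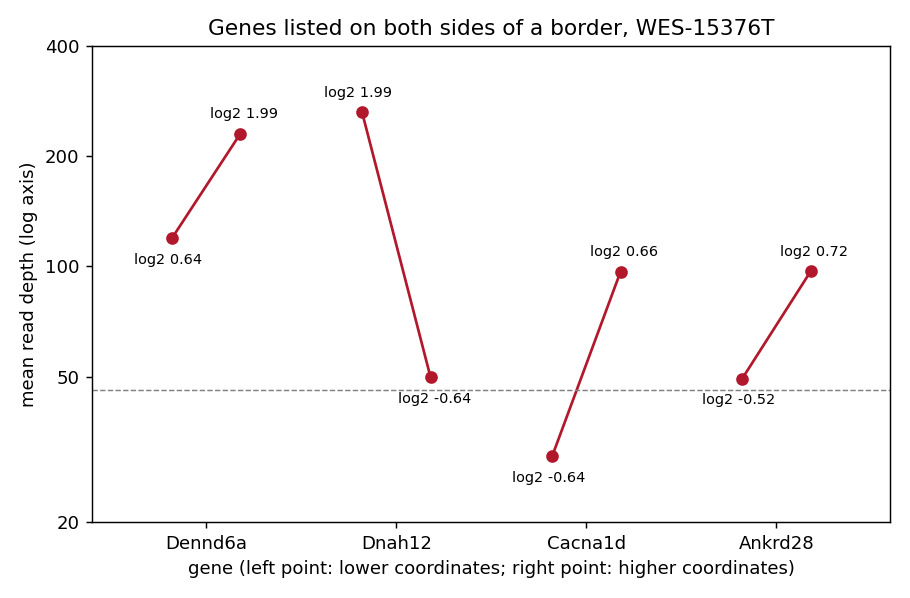
Mean read depth (vertical log axis) of the parts of 4 genes (horizontal axis) listed on both sides of a border of WES-15376T, the left point being the part at lower coordinates, with the segment log2 at each point and a dashed line at the 2-copy depth of 46.0. Dnah12 falls from 264 to 49.8 and the other 3 genes rise.

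WES-14837T showed small alternating steps instead. Its 11 borders on chromosome 14 had steps of 0.10 to 0.33 in size, and 8 of them reached 0.2. The 6 higher segments had log2 -0.35 to -0.30 and depths of 38.1 to 43.5, and the 6 lower ones log2 -0.65 to -0.41 and depths of 28.3 to 33.5. The 2-copy depth of this line was 47.5. Neither the levels nor the depths of the higher and lower segments overlapped, and all 12 segments were called at 1 copy. By depth over the 2-copy depth, the higher segments stood at log2 -0.13, -0.32, -0.16, -0.17, -0.13 and -0.14 in order. The first segment of WES-15376T, called at 2 copies, stood at -0.21 on that scale, so depth alone does not separate these calls. The levels define the segments, so this is a description.

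The borders of WES-14837T lay inside Cfap20dc, Rarb, a retinoic acid receptor gene, Lrmda, Rps24, which encodes a ribosomal protein, Erc2, Cacna1d, Parg, a poly(ADP-ribose) glycohydrolase gene, Tmem260 and Gm45935. The other borders were the stretch without bins and the one between the odorant receptor genes Olfr743 and Olfr744. The higher segments held 33.4 to 289 bins per Mb with a median of 81.6, the lower ones 42.2 to 84.3 with a median of 52.5. The median GC content of the promoters in a segment was 49.5 to 58.0% in the higher and 40.2 to 53.0% in the lower. The part of bin density and GC content in the alternation was not tested.

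The depth of genes in WES-15376T also varied between the stretches that the borders of WES-14837T cut from its longer segments. Within the longest gained block, the mean gene depth weighted by bins was 81.7, 60.9 and 91.0 over the stretches where WES-14837T was at -0.33, -0.60 and -0.33. Within the segment of WES-15376T at -0.64 after the highest block, it was 42.7 where WES-14837T was at -0.33 and 29.3 where it was at -0.63, and within the segment at -0.59 it was 47.9 where WES-14837T was at -0.33 and 32.2 where it was at -0.50. In these 3 segments the genes of WES-15376T had the same order of depth as the segments of WES-14837T although WES-15376T had no border there. Every listed row entered these means. Bins listed for several genes, such as those of Cphx1 to Cphx3 in the stretch at 91.0, were thus counted repeatedly.

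The order was not the same in the other segments of WES-15376T. Within the first lost segment, at -0.64, the mean gene depth was 32.1 where WES-14837T was at -0.58 and 30.3 where it was at -0.33. Within the last segment, at -0.55, it was 43.1, 40.0, 38.9 and 34.9 where WES-14837T was at -0.35, -0.65, -0.31 and -0.41, so that the second stretch, the lowest in WES-14837T, was above the next ones.

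The lines shared 1 border within 100 kb, which was the stretch without bins at the same coordinates in both. Within 1 Mb 5 of the 9 borders of WES-15376T had a border of WES-14837T. Among the 8 other borders the distances to the nearest border of WES-14837T were 3035, 2069, 1651, 1518, 223, 636, 540 and 346 kb in order. Cacna1d held a border of each line, 223 kb apart.

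Cut at every border of either line, chromosome 14 gave 20 intervals, and the call was opposite in 6 of them, beside 4.68% of the 363 autosomal intervals. In all 6 WES-15376T was gained and WES-14837T lost. Of the 17 opposite intervals on the autosomes, 35.3% had this direction, which were the 6 on chromosome 14 and no other. The opposite intervals covered 8.33 Mb of chromosome 14, 6.93% of it, out of 33.1 Mb on 8 autosomes. The log2 differences, WES-15376T minus WES-14837T, were 0.98, 1.24, 0.97, 2.32, 1.00 and 1.05 in order along the chromosome. The rule that both lines pass a call threshold in opposite directions sets the sign of these differences and a floor under their size.

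From the depths of the same segments, each over the 2-copy depth of its line, the differences were 0.97, 1.40, 0.81, 2.58, 0.81 and 0.91. These depths come from the same reads and whole segments, the first 3 sharing the depth of 72.4 in WES-15376T, and the 2-copy segments were called from the log2 values, so they are no independent reading. Together with the opposite intervals, 13.6% of the length had a different call in the lines, the rest being the first segment of WES-15376T at 2 copies where WES-14837T was at -0.30 and -0.58. Where it was at -0.30 the log2 difference was 0.18 but the difference by own depth was -0.08, from depths of 39.8 and 43.5, so the sign was not the same by depth. Where it was at -0.58 the differences were 0.46 and 0.49. Both lines were lost over 104 Mb in 12 intervals, where the differences ran from -0.31 to 0.10.

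The tables listed 778 gene names for WES-15376T and 424 for WES-14837T, and 421 were listed for both lines. Of these, 412 had equal numbers of bins in the lines, with the same start, and only these were compared by depth. Genes were listed from an absolute log2 of about 0.4, the smallest on chromosome 14 being 0.52 for WES-15376T and 0.41 for WES-14837T, so that no gene of the segments of WES-14837T at -0.35 to -0.30 was listed. The longest gained block was thus compared by gene depth in 1 stretch alone, chr14:23055904-24490816, and the highest, Prkcd and last blocks not at all.

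The own depth ratio of a gene is the log2 of its depth over the 2-copy depth in WES-15376T minus the same in WES-14837T. In that stretch it was 1.21 for Kcnma1, the gene of the BK potassium channel, with depths of 59.9 and 26.7 over 43 bins. It was 0.97 for Dlg5, a scaffold protein of cell polarity, with depths of 51.3 and 27.0 over 32 bins. It was 1.31 for E330034G19Rik over 6 bins and 0.94 for Polr3a, the largest subunit of RNA polymerase III, over 31 bins. The median of the 4 was 1.09, beside 1.40 from the own depths of the segments and a difference in segment log2 of 1.24. They could be compared only because WES-14837T was low enough there for its genes to be listed, so their direction was set by the segment levels.

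The other 408 genes were lost in both lines and had a median ratio of -0.16, 340 of them being below 0. The share of autosomal genes below 0 was not counted, but their median was itself below 0. Over all 412 the median was -0.16 with an SD of 0.26 among genes, and over 3430 autosomal genes it was -0.12. A ratio of at least 0.5 was found in 13 of the 412, beside 0.991% of the autosomal genes, and a ratio of at most -0.5 in 20, beside 4.11%. Among the 243 genes with at least 5 bins the counts were 4, which were the genes of the stretch above, beside 0.353% of 1985 autosomal genes, and 3, beside 1.96%. The latter were R3hcc1 at -0.52, Stmn4 at -0.51 and Spata13 at -0.50, which just reached the limit.

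The other 9 genes with a ratio of at least 0.5 had 1 or 2 bins each. Of these, 6 belonged to the miR-17-92 cluster, whose microRNAs act downstream of Myc. Mir18 and Mir19a were listed with the same value, a depth of 83.7 in the first line and 47.8 in the second, a ratio of 0.85. Mir19b-1, Mir20a and Mir92-1 shared depths of 93.3 and 62.3, a ratio of 0.63, and the host gene Mir17hg had 0.55 over 2 bins. Mir17 of the same cluster went the other way at -0.42, with depths of 16.7 and 23.0. These values thus came from few bins that the genes share, in a segment lost in both lines.

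**Figure D5:**
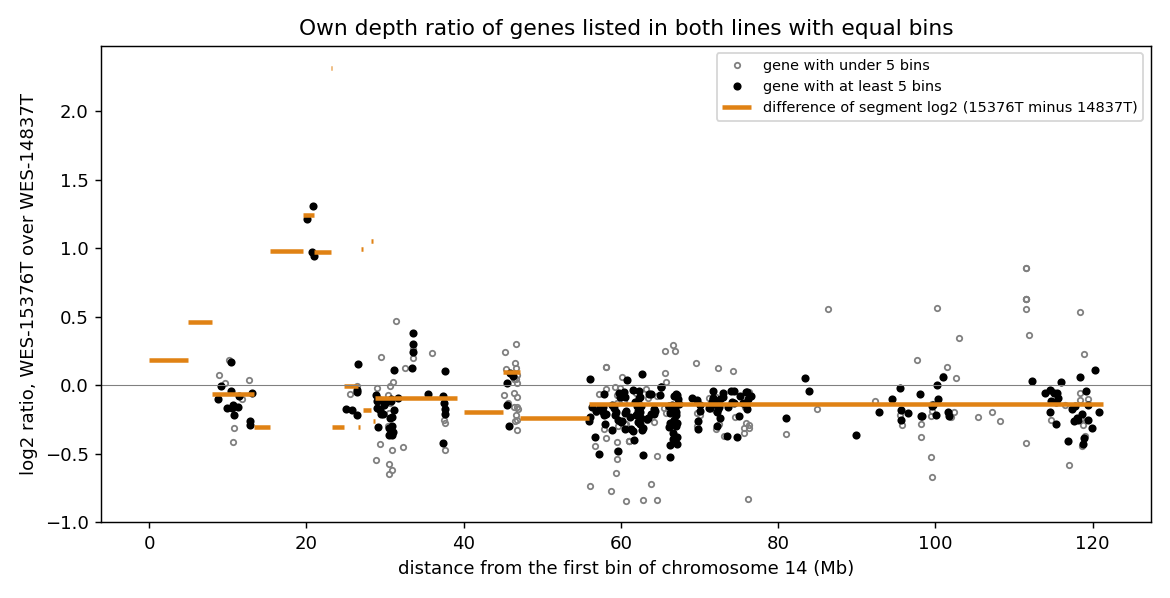
Own depth ratio of the 412 genes listed in both lines with equal bins (circles, filled for genes with at least 5 bins) and the difference of segment log2 in each of the 20 intervals (orange bars), as log2 of WES-15376T over WES-14837T (vertical axis) against the distance from the first bin in Mb (horizontal axis). The 4 filled points above 0.5 are those at 0.94 to 1.31 under the bar at 1.24, and no gene was listed in both lines under the other 5 high bars.

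By interval, the median ratio of genes lost in both lines was -0.10 over 20 genes at chr14:11554850-16818897 and -0.06 over 8 genes at chr14:28271065-30128874. It was -0.15 over 58 genes at chr14:32284061-42638562, -0.06 over 25 genes at chr14:48508990-50617668 and -0.18 over 297 genes in the distal 65.4 Mb. The differences in segment log2 in these intervals were -0.07, -0.01, -0.10, 0.10 and -0.14. From the own depths of the segments they were -0.03, 0.08, -0.08, -0.01 and -0.05. Among the genes of an interval the SD of ratios was 0.12 to 0.25, and whether the medians differ was not tested.

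Of 22 cancer genes listed for chromosome 14, 18 were lost and 3 gained in WES-15376T, and 22 were lost in WES-14837T. The gained ones were Plau, Kat6b and Prkcd, with depths of 97.0, 82.2 and 72.2 in WES-15376T. Fhit lay in the 2-copy segment of WES-15376T and at log2 -0.58 in WES-14837T. Rb1 was at -0.55 and -0.41, with depths of 37.9 and 47.0 over 30 bins in each line and an own depth ratio of -0.26. Bmpr1a, a BMP receptor, had the lowest ratio of the 10 with a value at -0.37, and Rarb the highest at -0.06. Over all 850 protein-coding genes 673 were lost and 72 gained in WES-15376T, and 827 were lost in WES-14837T, which is the background of these counts. All segments of WES-14837T were called lost, so its count was fixed and nothing is read from it.

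The paper calls the Wnt ligand Wnt5a traditionally non-canonical and proposes that it acts on fibroblasts through the receptor Fzd4 and β-catenin. Its gene, at chr14:28504543-28527448, was lost in both lines, at log2 -0.64 and -0.63. Its depth over 7 bins was 23.5 in the first line and 27.3 in the second, a ratio of -0.17. It lay 1.76 Mb after the end of the highest block of WES-15376T and 1.95 Mb before the start of the Prkcd block, in the lost stretch between them. All 16 genes of the list of signalling and lineage factors, among them the Wnt receptor gene Fzd3, Bmp4, Gata4 and Klf5, were lost in both lines, where 673 of all 850 protein-coding genes of the chromosome were lost in WES-15376T, and 827 of them in WES-14837T. The ratios of the 12 with a value were -0.40 to -0.03.

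All 8 genes of the metabolic and secreted list were also lost in both lines, beside the same 673 and 827 of 850 protein-coding genes. The highest ratio was 0.38 for Ghitm, an inner membrane protein of mitochondria, with depths of 53.6 and 42.5 over 8 bins. The lowest was -0.48 for Fdft1, squalene synthase. Of the 43 microRNA genes 37 were lost in WES-15376T, while all 43 were lost in WES-14837T, beside losses over 86.4% and 100% of the length of the chromosome. The 16 with a ratio ran from -0.83 for Mir759 to 0.85 for Mir18, with a median of 0.13. Several of them shared a bin, and with each of the 12 distinct pairs of depths counted once the median was -0.10.

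The larger gene families examined lay outside the gains, unlike the sets of near-identical copies such as Cphx1 to Cphx3 in the longest block. Beside this, only 72 of the 850 protein-coding genes and 6.93% of the length of the chromosome were gained, so nothing is read from it. The 42 odorant receptor genes named Olfr were at log2 -0.64 to -0.55 in WES-15376T and -0.65 to -0.31 in WES-14837T. The 191 T cell receptor genes named Tra, which rearrange only in lymphocytes, were at -0.55 and -0.31 and had no listed gene. The 13 granzyme and mast cell protease genes were at the same levels, with depths of 34.2 to 103 in WES-15376T. The 5 beta-defensin genes named Defb were at -0.55 and -0.41, and their ratios ran from -0.54 to -0.07.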

How the data were processed

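DNA of the 2 lines was captured for WES and sequenced on an Illumina NovaSeq, with 1 library each. The paper's methods name a NimbleGen human exome library, whereas the labels name an Agilent SureSelect human exome kit, so that mouse DNA was captured with human baits by either account. The submitters' processing notes name mm10; the aligner, the caller's version and the copy-number reference are not given in the sources used here. The authors deposited a segment table and a gene table per line. The log2 values deposited are ratios of coverage to a reference. The B-allele value deposited per segment is a fraction. The read depth deposited per segment and gene is a mean coverage without normalization. The bin counts deposited say how many bins a segment or gene holds. The integer copy numbers followed the default thresholds of CNVkit with 0 exceptions.

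Starts were written counting from 1. Gene positions, promoters and microRNAs came from RefSeq on GRCm38.p6, which matched 768 of 778 and 421 of 424 listed names on chromosome 14. Values were computed with Python 3.11.15, numpy 2.4.6 and pandas 2.3.3, and drawn with matplotlib 3.10.9. No test was possible with 1 library per line. The steps were checked on simulated data. Genes named were those at borders, in gained segments, in 4 gene lists, and at the extremes of the depth ratio. The members and lists were chosen with earlier results of these data known. The depth per library is given as the mean depth of 2-copy segments, 46.0 and 47.5, and the total reads are unknown. Alternatives changed the call thresholds, centring, weights, minimum bins and the measure of level. An allele of the mice and a gene of the gained segments are not reported here.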

Additional observations from a re-analysis of the deposited data

Results flagged for a closer look

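In 6 intervals of chromosome 14 the lines moved in opposite directions, WES-15376T being gained and WES-14837T lost. The differences in log2, WES-15376T minus WES-14837T, were 0.98 at chr14:18888973-23055403, 1.24 at chr14:23055904-24490816, 0.97 at chr14:24491692-26616985, 2.32 at chr14:26619269-26743270, 1.00 at chr14:30479599-30765496 and 1.05 at chr14:31734939-31928939. With 1 library per line the difference was not tested.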

How the results depend on the processing

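Of 60 alternative values over 18 results, 49 were classed as the same, 11 as moved by more and 0 as changed in sign. For levels the class rested on their spread, while counts and shares were allowed some change. Those classed as the same include a gained share of WES-15376T of 9.78% by bins against 6.93%. They also include 8 against 11 borders of WES-14837T with steps of at least 0.2. The first segment of WES-14837T, at -0.300029, only just passed the alternative threshold of 0.3. With calls from an absolute log2 of 0.5, the lost share of WES-14837T was 11.4%, the share with a different call 88.2% and the opposite share 1.19%, since most of its levels lie between -0.5 and -0.3. Between segments of at least 50 bins WES-15376T had 5 borders, where the integer copy number changes WES-14837T had 0, and within 1 Mb 5 borders were shared. From own segment depths the differences in the second to sixth opposite intervals were 1.40, 0.81, 2.58, 0.81 and 0.91. Leaving out the genes of the highest segment removed none of the 412, so it says nothing about stability. No paired analysis was possible because there was a single library for each line and no result came from a test. The blocks of 12 and 33 bins are the least certain.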
